A study of Mus with 2 samples.

Results

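Core macrophage genes and the CSF1 axis were followed as 7 genes chosen by name, namely the ligands Csf1 and Il34, their shared receptor Csf1r, the transcription factor gene Spi1, the surface and lysosomal markers Adgre1 and Cd68, and the uptake receptor Mertk. They are 7 of the 32285 features counted in this series, and all 7 were detected in both tumor sections. Spatial RNA counts came from Visium, in which a frozen tissue section is laid on a grid of barcoded spots and the unique molecular identifiers (UMIs) of captured RNA are counted, so that copies made by amplification count once. One spot usually covers several cells, often of unlike types. The tumors grew from CT26, a mouse colon carcinoma cell line placed under the skin of female balb/c mice aged 6 to 8 weeks, the strain the line came from. The control mouse received PBS, the rIL7 mouse received 10 µg of recombinant mouse IL-7 into the abdominal cavity on days 11 and 13, and both tumors were taken on day 15 and cut at 10 µm. Each group is 1 section, so every difference below is between 2 sections, with no replicate check and no p-value, and treatment, animal, section and library cannot be told apart.

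Macrophages depend on the receptor CSF1R, a tyrosine kinase that carries signals for their survival, growth and differentiation. Its ligands, CSF1 and IL-34, are made by tumor cells, fibroblasts and other stromal cells and bind the same receptor. Spi1 encodes PU.1, a transcription factor that acts on the promoters of many macrophage genes, Csf1r among them. Adgre1 encodes the adhesion receptor known as the F4/80 antigen, Cd68 encodes a lysosomal glycoprotein of macrophages, and Mertk encodes a receptor with which macrophages take up dying cells. Macrophages are often abundant in mouse tumors, and blocking CSF1R is a common way to lower their number.

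Kept spots numbered 2219 in the control section against 1950 under rIL7, with 22951678 and 25729233 UMIs and medians of 9623 and 12922 UMIs per spot. Levels are given as UMIs per 1000000 UMIs of the section or zone (CPM), with 95% exact Poisson or binomial intervals that cover counting error only. Each section was also split into 4 quadrants, whose range describes the spread within a section and does not stand for replicates. The labelled tumor was checked by the CT26 markers Rpl39l and Baiap2l1, at 432 and 861 CPM in the control section against 379 and 664 CPM under rIL7. The presence of macrophages was checked by 16 further macrophage marker genes, which summed to 6290.4 CPM in the control against 7564 CPM under rIL7. Fewer cells of a type and less RNA per cell cannot be told apart in any of these values.

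Over whole sections, the 7 genes stayed close between the rIL7 and the control tumor. Both ligands and Cd68 were slightly higher in the rIL7 section, Csf1r and Spi1 were nearly level, and Adgre1 was lower. The sparse Mertk had the largest ratio, 1.36 (1.06 to 1.74). None of the 7 reached a CPM ratio of 1.5 in either direction, a size that 4.79% of the 12046 genes with at least 100 UMIs reached upward and 3.17% reached downward. In 0 of 7 genes did the quadrants of one section lie wholly above or below those of the other, against 10.2% of all those genes for rIL7 higher and 10.7% for rIL7 lower. The median log2 ratio (rIL7 over control) was 0.15 over the 7 genes and 0.00 over all 12046, of which 49.4% were higher in the rIL7 section.

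Csf1, the main growth factor of macrophages (ENSMUSG00000014599, GRCm38 chromosome 3, 107741048 to 107760469), had 5401 UMIs or 235 CPM in the control section against 6723 UMIs or 261 CPM under rIL7. The rIL7 level was 1.11-fold that of the control (1.07 to 1.15), while quadrants spanned 200.5 to 258 and 233 to 284 CPM and overlapped. Il34, the second ligand (ENSMUSG00000031750, chromosome 8, 110741829 to 110805949), stood at 103 CPM in the control against 118 CPM under rIL7, from 2372 and 3043 UMIs. Its ratio was 1.14 (1.08 to 1.21), and its quadrants ranged more widely in the control, 79.4 to 118 CPM, than in the rIL7 section, 113 to 123 CPM. The ligands thus shared a direction and a size, and neither difference cleared the spread within a section.

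Csf1r (ENSMUSG00000024621, chromosome 18, 61105572 to 61131139) had 3893 UMIs or 169.6 CPM in the control against 4100 UMIs or 159 CPM under rIL7. The ratio of 0.939 (0.899 to 0.982) was slightly below 1, and it changed side when each spot was given the same weight or thinned to the same depth, with a log2 ratio of 0.03 in place of -0.09. Quadrants of Csf1r ran from 134 to 200.1 CPM in the control and from 125 to 192 CPM in the rIL7 section, so they covered almost the same range. Spi1, the gene of PU.1 (ENSMUSG00000002111, chromosome 2, 91082374 to 91115759), was at 90.2 and 93.4 CPM, a log2 ratio of 0.05 (-0.03 to 0.14) whose interval includes 0.

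Adgre1 (ENSMUSG00000004730, chromosome 17, 57358581 to 57483529) was the only member besides Csf1r with a ratio below 1, at 46.4 CPM from 1065 UMIs in the control against 36.0 CPM from 925 UMIs under rIL7. The control level was 1.29-fold higher (1.18 to 1.41), yet its quadrants overlapped, with 31.4 to 59.8 CPM in the control and 27.4 to 43.0 CPM in the rIL7 section. Cd68 (ENSMUSG00000018774, chromosome 11, 69664213 to 69666170) had the opposite direction, with 147 CPM in the control against 167 CPM under rIL7 and a ratio of 1.14 (1.09 to 1.19). These markers, which are often used side by side for macrophages, therefore shifted against each other: Adgre1 UMIs per Cd68 UMI were 0.316 in the control against 0.216 under rIL7, 1.47-fold apart (1.33 to 1.62). That ratio also varied within the control section, from 0.214 to 0.399 over its quadrants, and that range includes the 0.187 to 0.239 of the rIL7 quadrants in part.

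Mertk (ENSMUSG00000014361, chromosome 2, 128698915 to 128803162) was sparse, with 113 UMIs or 4.92 CPM in the control against 172 UMIs or 6.69 CPM under rIL7. Its ratio of 1.36 had a wide interval of 1.06 to 1.74, and the quadrants overlapped at 3.44 to 6.29 and 6.00 to 7.61 CPM. At this depth Mertk can be compared only over large areas.

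**Figure D1:**
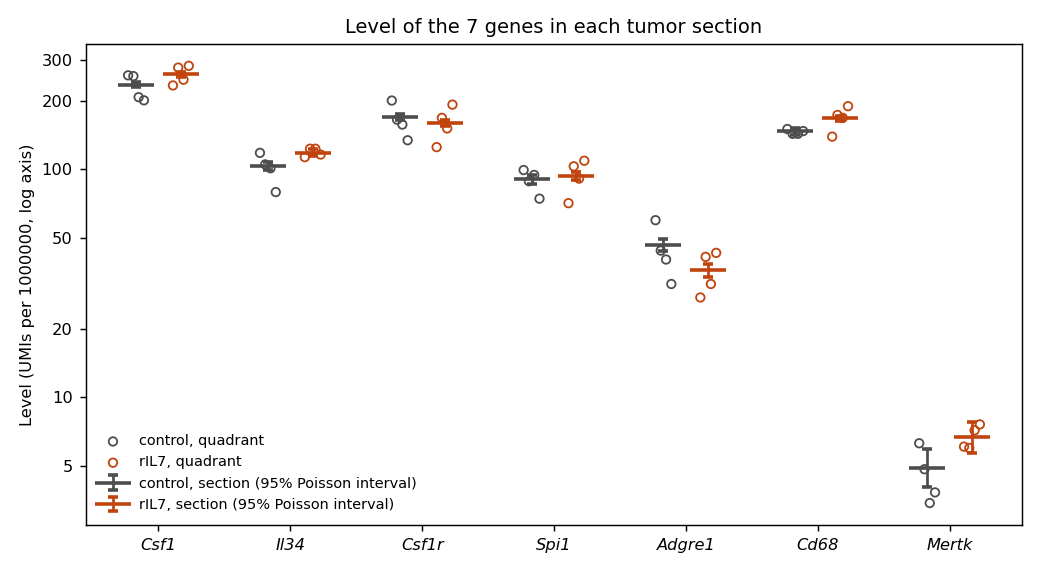
Level of each of the 7 genes (UMIs per 1000000, log axis) in the control and the rIL7 section. Horizontal marks are section values with 95% Poisson intervals and open circles are the 4 quadrants of a section, which overlap between the sections for all 7 genes; Adgre1 is at 46.4 in the control against 36.0 under rIL7.

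Distance from the tissue outline separated the sections far more clearly than the totals did. Edge spots reached up to 2 grid steps inward from the outline of the main tissue piece, 401 in the control against 330 under rIL7, and the remaining 1806 and 1599 spots of that piece were the interior. In the rIL7 section, Csf1r, Spi1 and Adgre1 were all higher at the edge than in the interior, Cd68 was higher by less, and both ligands were higher in the interior. In the control section the genes other than Mertk were nearly flat, and all 7 counting intervals of the edge over interior ratio included 1. Control Mertk had a ratio of 1.49 (0.945 to 2.28) from only 30 edge UMIs.

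Csf1r in the rIL7 section had an edge level of 246 CPM and an interior level of 143 CPM, a ratio of 1.71 (1.59 to 1.84), and was higher in each of the 4 quadrants. In the control it stood at 179 and 167 CPM, a ratio of 1.07 (0.986 to 1.15). On the log2 scale the edge over interior difference was larger in the rIL7 section by 0.68 (0.53 to 0.84). Spi1 followed the receptor gene closely, at 144 CPM at the rIL7 edge and 84.3 CPM in the rIL7 interior, a ratio of 1.71 (1.55 to 1.88), against 98.0 and 88.3 CPM in the control. Csf1r UMIs per Spi1 UMI were 1.71 at the rIL7 edge and 1.70 in the rIL7 interior, so the transcription factor gene and the receptor gene kept one ratio across zones that differed 1.71-fold in both.

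Adgre1 had the steepest edge among the 7 genes, with 68.6 CPM at the rIL7 edge, 29.8 CPM in the rIL7 interior and a ratio of 2.30 (1.99 to 2.66). Control edge and interior were at 47.0 and 46.3 CPM, and the log2 difference between the sections was 1.18 (0.88 to 1.48). The lower section total of Adgre1 under rIL7 therefore came from the interior, where the rIL7 level was 0.643 of the control level (0.580 to 0.713), while at the edge the rIL7 level was 1.46-fold higher (1.21 to 1.76). Cd68 was at 190.4 and 163 CPM at the rIL7 edge and interior, a ratio of 1.16 (1.08 to 1.26), and at 137 and 149 CPM in the control. Mertk was at 9.68 and 6.19 CPM in the rIL7 section and 6.71 and 4.51 CPM in the control, ratios of 1.56 and 1.49 that hardly differed between sections (log2 difference 0.07, -0.72 to 0.87).

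The ligands went the other way. Csf1 was at 222 CPM at the rIL7 edge and 269 CPM in the rIL7 interior, so the interior was 1.21-fold higher (1.13 to 1.30). Il34 was at 98.6 and 122 CPM, the interior being 1.24-fold higher (1.11 to 1.38). Control values were 243 and 233 CPM for Csf1 and 103 and 103 CPM for Il34, with log2 differences between the sections of -0.33 (-0.48 to -0.19) and -0.30 (-0.51 to -0.08).

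Read against all genes, the count of members past 1.5-fold at the rIL7 edge was 4 of 7 (Csf1r, Spi1, Adgre1 and Mertk), where 8.19% of the 11113 genes tested reached that ratio at the edge and 7.02% reached it in the interior. Mertk fell short of 1.5-fold with an edge of 1 or 3 steps, at log2 ratios of 0.32 and 0.54. Csf1r, Spi1 and Adgre1 passed it under each alternative of edge width, spot weight and thinning, with lowest log2 ratios of 0.64, 0.72 and 1.06. Leaving out edge spots beside the capture frame removed 0 spots of the rIL7 section, so it could not change these values. In the control the count was 0 of 7, beside 1.18% of 10890 genes at the edge and 2.72% in the interior. Mertk fell just short there, at 1.49 in the control against 1.56 under rIL7, so its place in these counts is no contrast between sections. Csf1r, Spi1, Adgre1 and Cd68 were higher at the rIL7 edge in all 4 quadrants, a pattern held by 14.6% of the genes, and Csf1 and Il34 were higher in the rIL7 interior in all 4, a pattern held by 24.0%. For the control these shares were 7.77% and 18.5%, and 0 of 7 members fell in either. A quadrant pattern for the ligands is therefore a common one in the rIL7 section, whereas a 1.5-fold edge is less common.

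Markers of other cells moved with the same zones in the rIL7 section. All 10 T cell markers were at least 1.5-fold higher at the rIL7 edge, with a summed edge level of 368 CPM and a summed interior level of 105 CPM against 51.2 and 41.3 CPM in the control, and none was at 0. Over quadrants the T cell sum was 31.0 to 52.4 CPM in the control and 100 to 190 CPM in the rIL7 section. The 7 fibroblast markers summed to 3317 and 1938 CPM at the rIL7 edge and interior, with 3 of 7 at least 1.5-fold higher at the edge and 1 of 7 at least 1.5-fold higher in the interior, and the 6 endothelial markers to 102 and 42.3 CPM, with 4 of 4 tested past it. The 6 monocyte markers summed to 362 and 205 CPM, with 3 of 5 tested past it, while the 2 CT26 tumor markers were lower at the edge, 757 against 1096 CPM. In the control the monocyte sums were 294 and 262 CPM. There too 3 of 5 monocyte markers were past 1.5-fold at the edge, and 1 of 5 in the interior. Control edge and interior sums were 1928 and 1979 CPM for fibroblast, 65.8 and 53.0 CPM for endothelial and 1205 and 1315 CPM for tumor markers. Median depth was 11166 UMIs per spot at the rIL7 edge and 13162 in the rIL7 interior, and 10901 and 9482 in the control. The part of these cells, and of depth, in the edge values of the 7 genes was not tested.

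Ring by ring, the receptor side of the rIL7 section was highest in the outermost spots and dropped within 3 grid steps. Csf1r was at 266 CPM (242 to 291) in the first step, 229 in the second and 166 in the third, then 163 and 169.6 in the fourth and the fifth, and 121 CPM from step 12 on. Spi1 went from 161 CPM through 129 and 113 to 79.3 CPM from step 12 on, and Adgre1 from 79.9 CPM through 58.8 and 41.4 to 22.9 CPM at the fourth step. Csf1 was lower in the rim, from 210.0 CPM (189 to 232) in the first step to 266 CPM in the third. In the control, by contrast, Csf1r stayed between 164 and 191 CPM up to steps 9 to 11 and was lower from step 12 on, at 143 CPM (133 to 154). Control Adgre1 was also lowest there, at 32.2 CPM, while control Spi1 declined more gradually, from 109 CPM at the third step through 87.7 CPM at step 7 to 72.2 CPM from step 12 on. Both tumors thus had their lowest Csf1r in the deepest spots, and the high rim was seen in the rIL7 section.

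**Figure D2:**
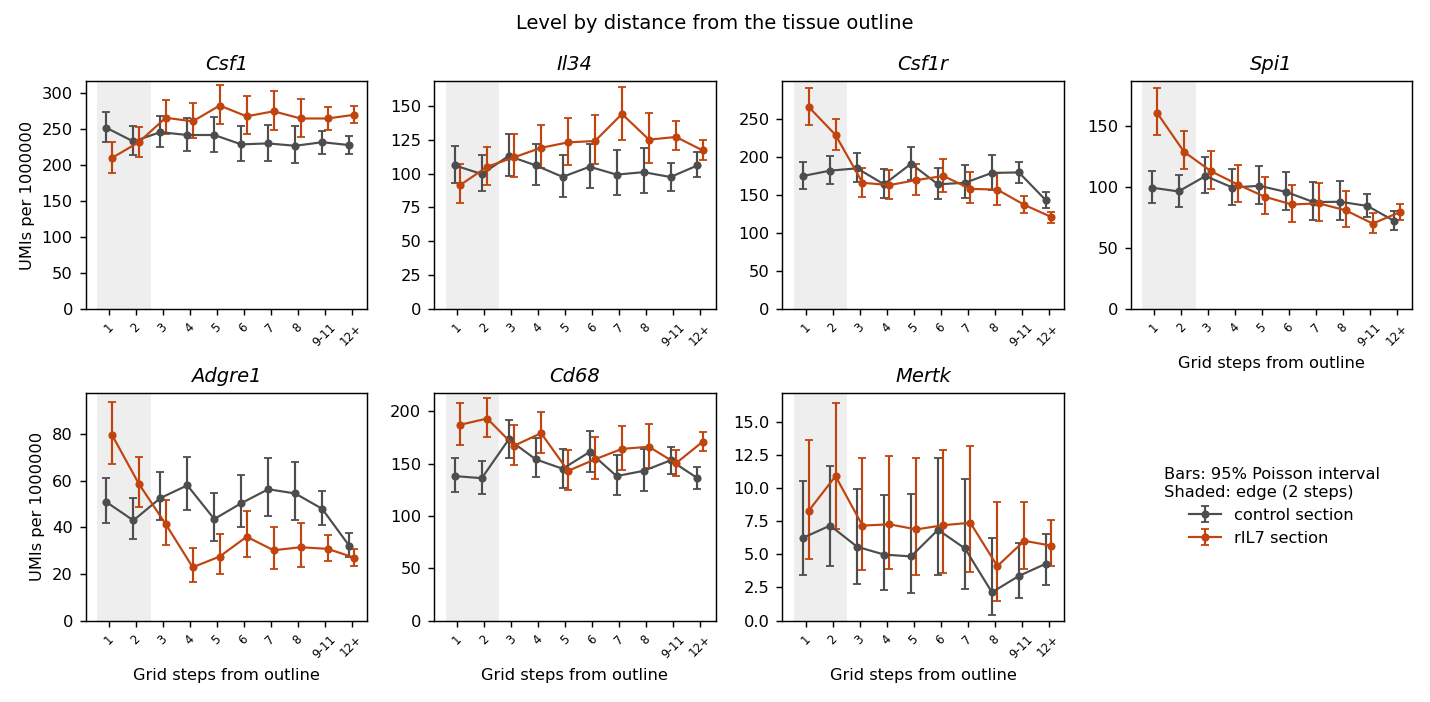
Level of the 7 genes (UMIs per 1000000, each panel starting at 0) by distance from the tissue outline in grid steps, with steps 9 to 11 and 12 onward pooled; bars are 95% Poisson intervals and the shaded band is the edge of 2 steps. In the rIL7 section Csf1r starts at 266 and ends at 121 while Csf1 starts at 210.0 and ends at 270.2, and the control lines are flatter.

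**Figure D3:**
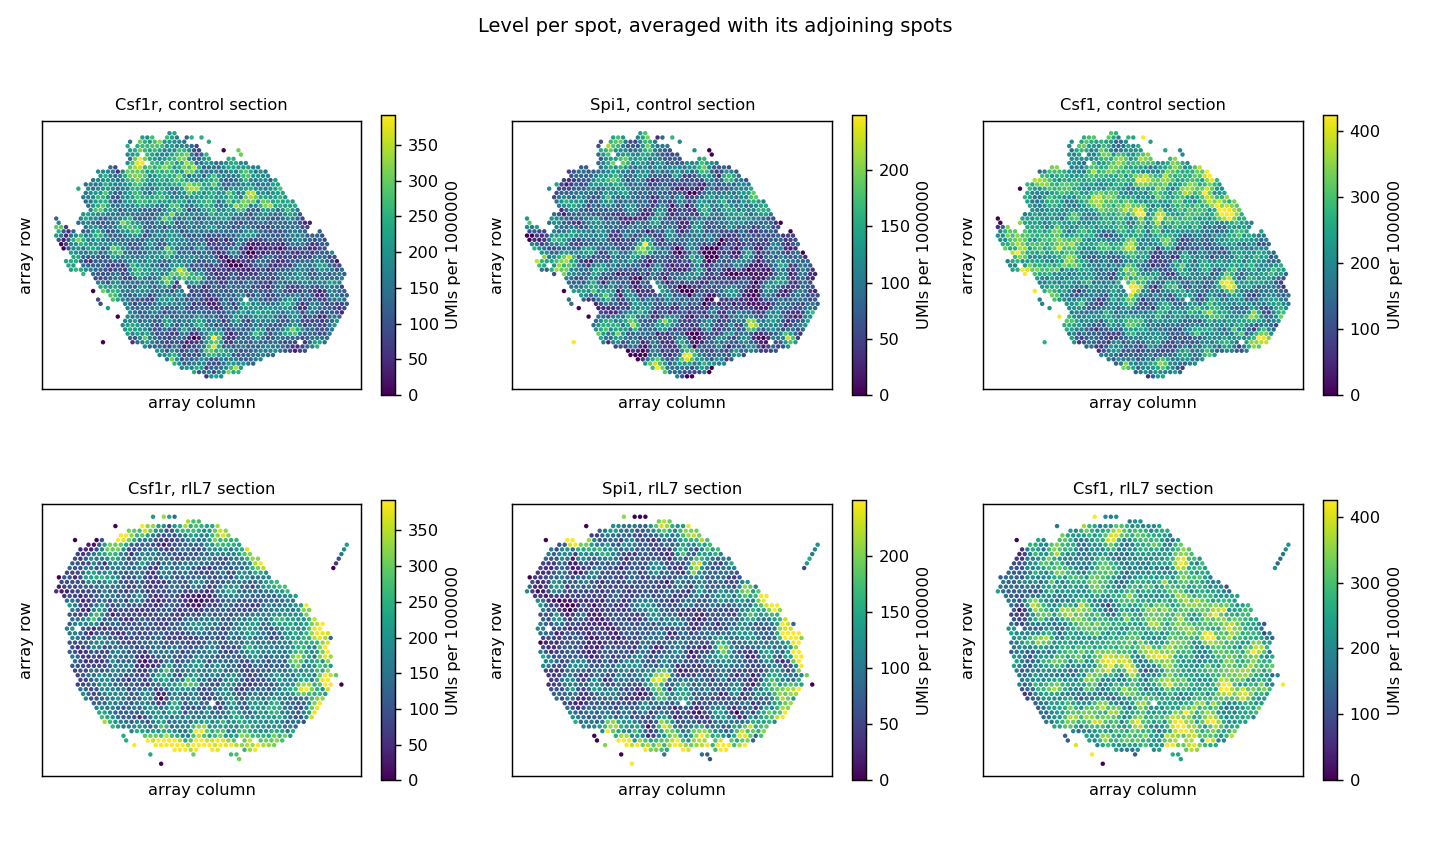
Maps of Csf1r, Spi1 and Csf1 in both sections, each point being a spot at its array row and column and its color the level over that spot and its adjoining spots (UMIs per 1000000, the same color range for a gene in both sections). The rim of the rIL7 section is bright for Csf1r, at 246 over all edge spots, and for Spi1, at 144, most visibly along its lower and right margin, whereas Csf1 there is 222 and its brighter spots lie inside.

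Because ligand and receptor moved in opposite directions, ligand transcripts per receptor transcript differed between zones of the rIL7 tumor more than either did alone. The size of such a ratio depends on how well each RNA is captured, so only its change is read here. Over whole sections Csf1 UMIs per Csf1r UMI were 1.39 in the control (quadrants 1.29 to 1.55) and 1.64 in the rIL7 section (quadrants 1.47 to 1.87), 1.18-fold apart (1.12 to 1.25). Within the rIL7 section the ratio was 0.902 at the edge and 1.87 in the interior, which was 2.08-fold higher (1.88 to 2.30). In the control, edge and interior stood at 1.36 and 1.39. By distance, the rIL7 ratio went from 0.790 in the first step through 1.01 and 1.61 to 2.24 from step 12 on, and the control ratio kept between 1.27 and 1.59.

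Il34 gave the same picture per receptor UMI, with 0.401 at the rIL7 edge and 0.851 in the rIL7 interior, a 2.12-fold difference (1.87 to 2.41), and 0.574 and 0.617 in the control. The ligands kept their own proportion, since Il34 UMIs per Csf1 UMI were 0.439 in the control against 0.453 under rIL7, and 0.445 and 0.454 at the rIL7 edge and interior. Neither ligand therefore gained on the other.

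**Figure D4:**
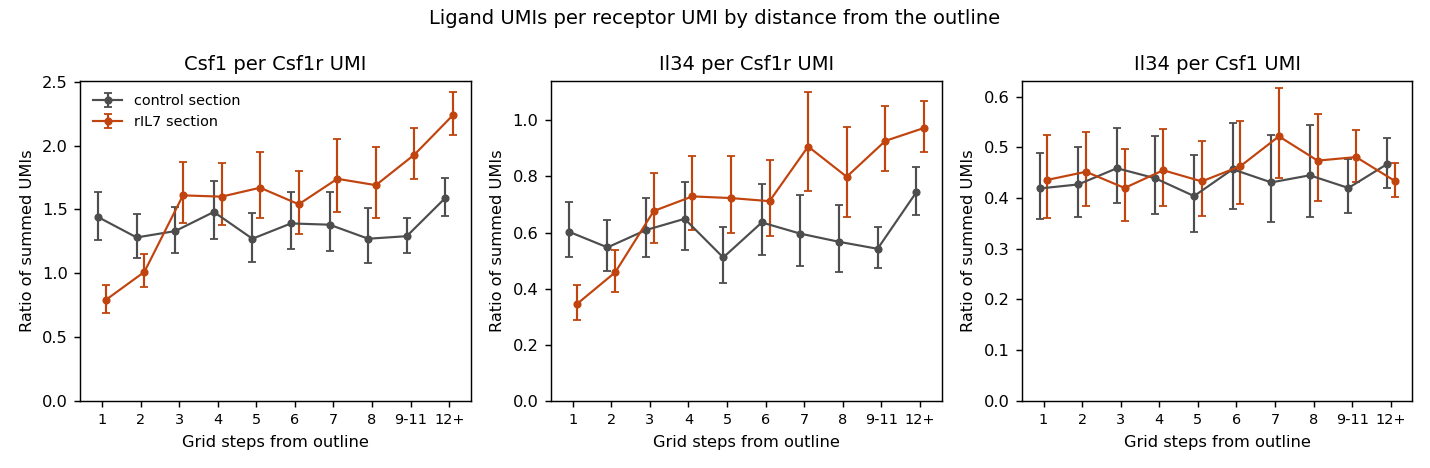
Summed UMIs of Csf1 per Csf1r, Il34 per Csf1r and Il34 per Csf1 by distance from the tissue outline in grid steps, with 95% exact intervals of the ratio and each axis starting at 0. In the rIL7 section Csf1 per Csf1r goes from 0.790 to 2.24 and Il34 per Csf1r from 0.344 to 0.973, while Il34 per Csf1 keeps between 0.420 and 0.522.

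Among the macrophage genes, proportions also shifted between rIL7 zones. Adgre1 UMIs per Cd68 UMI were 0.360 at the rIL7 edge and 0.182 in the rIL7 interior, 1.98-fold apart (1.68 to 2.33), but 0.343 and 0.311 in the control. The rIL7 edge thus had about the control proportion, and the rIL7 interior had less Adgre1 for its Cd68. Csf1r per Cd68 UMI followed, at 1.29 and 0.878 in the rIL7 section, 1.47-fold apart (1.32 to 1.64). In the control Csf1r per Cd68 UMI was 1.30 and 1.13, a smaller shift in the same direction of 1.16-fold (1.03 to 1.30).

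Across single spots the 7 genes barely tracked each other. With each spot thinned to 5000 UMIs, which left 2090 control and 1901 rIL7 spots, all 21 pairs had a Spearman rho between -0.05 and 0.12, and means of 0.0254 to 1.29 UMIs per spot leave such values without weight. Larger areas carried more counts. Over tiles of 6 array rows by 12 columns, 68 in the control against 61 under rIL7, Csf1r and Adgre1 had a rho of 0.73 in the control against 0.69 under rIL7, and Csf1r and Spi1 had 0.50 and 0.81. The median over the 10 pairs of Csf1r, Spi1, Adgre1, Cd68 and Mertk was 0.26 and 0.48. Tiles of a section share a library and adjoin each other, so these values describe the sections and carry no p-value.

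Il34 had unlike tile patterns in the sections. In the control its rho was 0.53 with Csf1r, 0.52 with Adgre1 and 0.48 with Csf1, whereas in the rIL7 section it was -0.21, -0.41 and 0.06. With edge spots left out (56 and 46 tiles), it was 0.55, 0.38 and 0.52 in the control and -0.07, -0.22 and 0.03 in the rIL7 section, so the lower values were seen within the interior too. Csf1, in contrast, had a rho with Csf1r of 0.52 and 0.47, and of 0.59 and 0.54 within the interior. Whether the Il34 values differ beyond the spread between tumors was not testable with 1 section each.

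**Figure D5:**
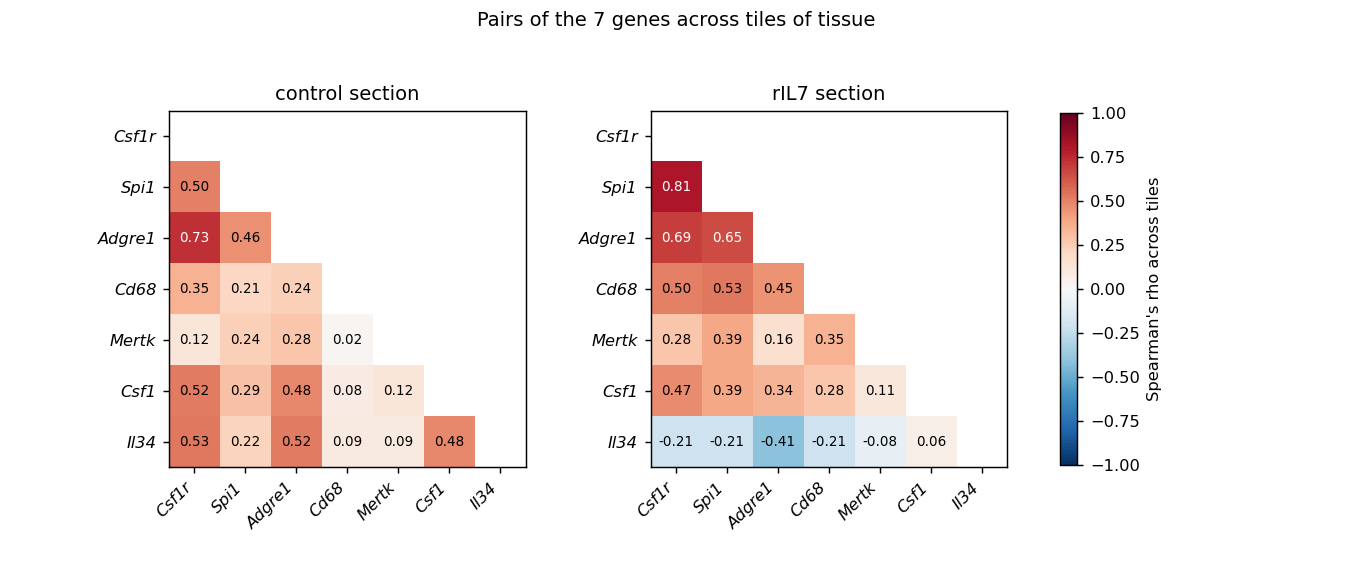
Spearman's rho between pairs of the 7 genes across tiles of tissue, 68 in the control against 61 under rIL7, on a color scale from -1 to 1. Csf1r, Spi1 and Adgre1 are positive with each other in both sections, and Il34 is positive with Csf1r in the control (0.53) and negative in the rIL7 section (-0.21).

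Tile values of Csf1r were closest to the sum of the 16 other macrophage markers, with a rho of 0.84 in the control against 0.87 under rIL7, and Spi1 had 0.60 and 0.84. Cd68 had only 0.27 and 0.63 with the same sum, and Il34 had 0.54 and -0.36. The T cell sum gave Csf1r a rho of 0.39 in the control against 0.81 under rIL7, or 0.41 and 0.70 within the interior. T cell markers averaged only 0.217 thinned UMIs per spot in the control against 0.782 under rIL7. The part of these fewer counts in the lower control rho was not tested. With the CT26 tumor markers, Csf1r had a rho of -0.06 and -0.71, Spi1 of -0.29 and -0.71 and Il34 of 0.05 and 0.35. Interior spots, thinned to the depth of the single-spot correlations, were also classed by tumor marker UMIs. From few to many such UMIs, Csf1r was at 165, 168 and 145 CPM in the control and at 152, 156 and 133 CPM under rIL7. It did not fall steadily, and the counting intervals of the lowest and the highest class overlapped in both sections.

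Spots with T cell transcripts showed the same relation in levels. T cell UMIs were counted after thinning each spot to the depth of the single-spot correlations, with shallower spots left out. Levels in these classes are of the thinned UMIs, so a spot counted with 0 may hold T cell UMIs at full depth. In the rIL7 section Csf1r was at 144 CPM in 1050 spots with 0 T cell UMIs, 159.8 CPM in 522 spots with 1, and 243 CPM (219.9 to 268) in 329 spots with 2 or more. Spi1 went from 79.2 through 96.6 to 156 CPM and Adgre1 from 30.3 through 31.4 to 62.6 CPM, while Csf1 was at 249, 266 and 272 CPM and Il34 at 127, 121 and 112 CPM. Within the interior alone the steps were smaller, so the edge held much of the contrast. There Csf1r was at 141, 151 and 169 CPM, Spi1 at 77.1, 88.8 and 120 CPM and Adgre1 at 28.1, 26.3 and 45.6 CPM. In the control, Csf1r was at 159, 174 and 193 CPM, the last in 60 spots with a wide interval of 147 to 249.9. Control Adgre1 was at 41.3, 48.5 and 66.7 CPM and Spi1 at 89.0, 102 and 93.3 CPM. Control Cd68 was lowest in the last class, at 149.9, 153 and 96.7 CPM, so the macrophage genes did not all rise together.

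Genes whose spot pattern was most like that of Csf1r, among 1791 genes with enough counts, were Cd74, H2-Ab1, H2-Aa, C1qc, Lyz2, Apoe, H2-Eb1 and Tmsb4x. Their rho with Csf1r was 0.12 to 0.18 in the control and 0.16 to 0.22 in the rIL7 section. The median over all genes was 0.00 in both, but these genes were picked for the highest rho, so a value above it was set by the choice. Cd74 and the H2 genes belong to antigen presentation by MHC class II, and C1qc, Lyz2 and Apoe are abundant macrophage transcripts. For Cd68 the nearest genes were Cd74, C1qc, Ftl1, Fcgr2b, Ctss, Tyrobp, Itm2b and Cxcl16, at 0.06 to 0.11. For Csf1 the first gene was Ccl2, a monocyte chemokine gene, at 0.08 and 0.06, and for Il34 it was Il1rl1, the IL-33 receptor gene, at 0.08 and 0.11, values too weak at these counts to set a gene apart.

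Signalling genes downstream of CSF1R were then taken as a list of 20. Of these 1 was at least 1.5-fold higher in the rIL7 section, a share near the 4.79% of all genes, and 0 were lower by that size, with a median log2 ratio of 0.15. The highest were Fyn, a Src family kinase gene, at 9.72 and 18.7 CPM (ratio 1.92, 1.63 to 2.26), and the PI3 kinase subunit gene Pik3r1, at 1.49 (1.31 to 1.71). Among the lowest was Plcg2, a phospholipase gene, at a ratio of 0.841 (0.743 to 0.951). At the rIL7 edge 8 of 20 passed 1.5-fold, where 8.19% of all genes did, and at the control edge 1 of 20 did, where 1.18% of all genes did. The medians were 0.50 and 0.07 on the log2 scale. Many of these genes act in lymphocytes too.

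Of the receptors and factors of the neighbouring colony-stimulating factors, 4 of 5 with enough UMIs were higher in the rIL7 section, where 49.4% of all genes were, and 1 was lower. The median log2 ratio was 0.29, and 1 of 5 was past 1.5-fold upward, against 4.79% of all genes. Csf2rb and Csf2rb2 encode beta chains of the receptors for GM-CSF and IL-3 and are close in sequence, so that reads may be split between them. Their rIL7 over control ratios were 1.05 and 1.23, and their edge over interior ratios within the rIL7 section were 2.42 and 2.51. Csf2ra, the GM-CSF receptor alpha chain gene, was at 0.978 for rIL7 over control and 1.38 for edge over interior in the rIL7 section. Csf3r, the G-CSF receptor gene, was at 1.23 and 1.35 in the same order. Csf3, which encodes G-CSF, had 43 UMIs in the control against 93 under rIL7 (ratio 1.93, 1.33 to 2.84), and Csf2, the GM-CSF gene, had only 4 and 7. Of the other proposed IL-34 binding partners, Ptprz1 had 0 UMIs in both sections, for which the 95% Poisson upper limit is 0.161 CPM in the control against 0.143 CPM under rIL7. Sdc1, the syndecan-1 gene, was at 88.6 and 108 CPM with quadrants apart (ratio 1.22, 1.15 to 1.29), and Trem2, a macrophage lipid receptor gene, was level at 56.9 and 56.0 CPM.

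Other transcription factor genes of the macrophage lineage were mostly higher in the rIL7 section, 9 of 10 by direction where 49.4% of all genes were. By size 2 of 10 passed 1.5-fold upward and 1 of 10 downward, against 4.79% and 3.17% of all genes, and the median log2 ratio was 0.41. Irf8, a factor of monocyte and dendritic cell development that also acts in lymphocytes, was at 33.9 and 65.3 CPM (ratio 1.92, 1.77 to 2.10), and Tfec, a factor gene of macrophages, at 2.66 and 5.56 CPM (2.09, 1.54 to 2.87). Cebpb, a factor gene of inflammatory myeloid cells that other cells also transcribe, was at 241 and 146 CPM, 1.65-fold higher in the control. Quadrants were apart for these 3 genes, and Maf, the remaining gene named, was at 1.08. Spi1, at 1.04, therefore sat below most of its class.

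Partners of Mertk in the uptake of dying cells, a list of 12, had 3 genes past 1.5-fold upward and 0 downward, against 4.79% and 3.17% of all genes. The median log2 ratio was 0.27. Abca1, a lipid exporter gene, was at 25.8 and 61.8 CPM (ratio 2.40, 2.18 to 2.64), and Timd4, a phosphatidylserine receptor gene, had 49 and 93 UMIs (1.69, 1.19 to 2.44). The sister receptor gene Axl was level at 569 and 566 CPM, and Mfge8, a bridging ligand gene, was at a ratio of 0.896. Gas6, a ligand gene of Mertk and Axl and the remaining gene past 1.5-fold, had quadrants apart at 14.0 and 22.2 CPM (1.59, 1.38 to 1.83); it lies outside the naming rule and was chosen after its values were seen.

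Relatives of Cd68 and Adgre1 were set beside them. Lamp1 and Lamp2, lysosomal membrane genes of most cells, were at ratios of 1.03 and 1.19, near the 1.14 of Cd68, and Adgre5, a leukocyte relative of Adgre1, was at 1.22 where Adgre1 was at 0.775. Adgre4 had 21 and 22 UMIs and Lamp3 had 2 and 3, too few to compare.

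Among the 16 other macrophage markers, 13 were higher in the rIL7 section by direction, where 49.4% of all genes were, and the median log2 ratio was 0.13. Past 1.5-fold there was 1 of 16 in each direction, near the 4.79% and 3.17% of all genes. Cd163, a haemoglobin scavenger receptor gene, was at 8.10 and 19.2 CPM (ratio 2.36, 1.99 to 2.81) and Lyz2, the lysozyme gene, at 1364 and 2031 CPM (1.49). Cx3cr1, the fractalkine receptor gene, was 1.82-fold higher in the control, and Fcgr1, an immunoglobulin receptor gene, was 1.34-fold higher there. At the rIL7 edge 10 of 16 passed 1.5-fold, against 8.19% of all genes, and at the control edge 0 of 16, so the edge was shared by many macrophage transcripts beyond the 7 genes. Cd163 was not among them, at an edge over interior ratio of 1.09 in the rIL7 section.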

How the data were processed

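Per the labels and the study's methods, the authors aligned and counted the Visium libraries with Space Ranger 1.1.0 against mm10 (GRCm38). What the authors deposited are UMI counts of every gene in every spot, whole numbers with no normalization. Other deposited items (spot barcodes, gene identifiers, and the tissue flag and array position of each spot) were used as given, and image scale factors were not used here. Spots over tissue were kept with under 10% mitochondrial UMIs and over 200 genes, as in the study's methods, which removed 2 control and 1 rIL7 spot. Counts were summed and divided by total UMIs. Total depth was 22951678 and 25729233 UMIs, and the precision it gives is stated by intervals.

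The members and all 17 gene lists were chosen with earlier results of these data known. The edge was 2 grid steps wide, counted inward from the outline, and 12 and 21 spots outside the main piece stayed out of both zones. Spearman correlations were computed on spots thinned to 5000 UMIs (129 and 49 shallower spots left out) or on tiles with at least 10 spots. Spot classes by T cell or tumor marker UMIs, and the gene levels within them, used the thinned spots. Genes with fewer than 100 UMIs were not counted against the 1.5-fold size. With 1 section per group no test was run. Intervals are 95% exact Poisson, exact binomial or, for a ratio of ratios, from the delta method. Coverage was tested only for the exact binomial interval of a ratio, on simulated Poisson counts without clustering of spots. Named genes were the 7 members, every gene of lists of up to 6, the 2 highest and 2 lowest ratios of longer lists, and the 8 genes most like each member with a mean of at least 0.5 thinned UMIs (Csf1r, Csf1, Il34 and Cd68). Lists of other cell types were given by their sum and count. Some list genes that this rule names are not reported here. Gene coordinates are from RefSeq (GRCm38.p6), and exon parts were not used here. Annotated noncoding genes overlap Csf1r, Csf1 and Il34, and pseudogenes overlap Adgre1. Alternatives were TMM (edgeR 4.0.16) and median-of-ratios (DESeq2 1.42.0) scaling in R 4.3.3, other totals, spot filters, spot weights, edge widths, thinning depths and UMI minimums. Tables were made in Python 3.11.15.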

Additional observations from a re-analysis of the deposited data

How the results depend on the processing

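No paired analysis was possible because each group is 1 section, and for the same reason no replicate could be left out. Of 40 alternative values of the main summaries, 31 stayed within the counting interval, the spread over quadrants or 1.5 times the main count. Of the 40, 0 changed sign, which counts of genes cannot do. The median log2 edge over interior of the 7 genes in the rIL7 section, 0.64, was the value of Mertk, with a wide interval of 0.08 to 1.17. It was 0.32 with an edge of 1 step, which counts as having stayed. The count of genes at least 1.5-fold apart between sections, 959, moved to 1956 with a minimum of 20 UMIs and 373 with 500. The median rho over pairs of Csf1r, Adgre1, Cd68, Spi1 and Mertk, 0.03 in the control, was 0.01 after thinning to 3000 UMIs, 0.06 without thinning, 0.26 over tiles and 0.24 over tiles of interior spots. In the rIL7 section it was 0.04, with 0.08 without thinning, 0.48 over tiles and 0.43 over tiles of interior spots. For single members, 111 of 126 values stayed, 13 moved and 2 changed sign from a main value whose counting interval left out 0. Both were the log2 ratio of Csf1r (rIL7 over control), -0.09, which was 0.03 with each spot weighted the same and 0.03 with UMIs thinned to 5000 per spot. Some values whose counting interval held 0 also changed sign, and these are among those that stayed or moved. Spi1 (rIL7 over control) went from 0.05 to -0.07 in interior spots alone. Control edge over interior of Cd68 went from -0.12 to 0.02 with an edge of 3 steps. In interior spots alone the log2 ratio of Csf1r was -0.22, and that of Adgre1 was -0.64. Thinning took the control edge over interior of Adgre1 from 0.02 to -0.28 on the log2 scale. The edge without spots beside the capture frame, tiles of interior spots and interior T cell classes were chosen after seeing the data. Scaling moved the median of all genes by at most 0.01 on the log2 scale. Depth limits Mertk most.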

Other observations

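Genes of osteoclasts, bone-resorbing cells that form from macrophage precursors under CSF1, were looked at as a short list. Ctsk, which encodes the collagen-degrading cathepsin K, was at 9.37 CPM in the control against 35.9 CPM under rIL7 (ratio 3.83, 3.30 to 4.47) with quadrants apart. Acp5, the tartrate-resistant acid phosphatase gene, was at 56.9 and 102 CPM (ratio 1.79, 1.68 to 1.92) with overlapping quadrants. Dcstamp, a cell fusion gene, had 3 and 38 UMIs, a ratio of 11.3 with a counting interval of 3.59 to 57.2. Its partner Ocstamp was lower in the rIL7 section, at 12.3 and 8.74 CPM, and Calcr, the calcitonin receptor gene, had 0 and 1 UMI. Neither Ctsk nor Acp5 shared the rim of Csf1r, with edge over interior ratios of 0.955 and 0.854 in the rIL7 section. Fibroblasts and other macrophages also transcribe Ctsk and Acp5.

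Sums of the remaining lists differed between sections as follows. Dendritic cell markers summed to 26.7 CPM in the control against 39.0 CPM under rIL7, and neutrophil markers to 122 and 228 CPM, with Ly6g at 0 UMIs in both. B and plasma cell markers summed to 4.01 and 15.5 CPM. Their sum was 75.7 CPM at the rIL7 edge and 4.21 CPM in the rIL7 interior, against 4.25 and 3.97 CPM in the control. Proliferation markers summed to 652 and 667 CPM. The part of these cells in the values of the 7 genes was not tested.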
